A study of Homo sapiens with 18 samples.

Results

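The effect of a guide against POU2F3 (sgPOU2F3) was read in NCI-H211 cells that carried an empty vector, set against the control guide sgRosa in the same cells. NCI-H211 is an established line from small cell lung cancer and belongs to its tuft-cell-like subtype. Of the 18 libraries of the series, 6 held these cells: 3 with sgPOU2F3 (empty vector, Cas9, day 5 after infection) and 3 with sgRosa (empty vector, Cas9, day 5 after infection). All 6 came from a stable line that expressed Cas9 and, in the place of a POU2F3 cDNA, an empty control. Each guide was delivered by lentivirus in 3 infections of that line, so the p-values below measure the spread between infections and not between independently made lines. The members were all genes that averaged 1 TPM or more, a length-normalised share of a library's transcripts, over these 6 libraries, 13096 of the 19741 genes in the table. The other 12 libraries, from cells with a wild-type or L191A POU2F3 cDNA, entered only alternative fits.

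POU2F3 is an octamer-binding transcription factor of the POU family. It specifies tuft cells, rare chemosensory cells of airway and gut epithelia that sense ligands through taste-type G protein signalling and answer with acetylcholine, eicosanoids and cytokines. It acts with small coactivators, POU2AF2 and POU2AF3, that bind the factor on DNA. In small cell lung cancer it marks a subtype that lacks the neuroendocrine program of most such tumours and depends on POU2F3 for growth.

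With sgPOU2F3 the tuft program and its taste receptors fell, and many genes of adhesion, matrix, contractile filaments, inflammation, antigen presentation and ribosome biogenesis rose. In limma, at a Benjamini-Hochberg adjusted p of 0.05, 4918 of the 13096 genes tested differed between the guides (37.6%), and 6321 had an unadjusted p under 0.05. Of these calls, 1951 were higher with sgPOU2F3 (14.9% of genes tested) and 2967 lower (22.7%). At a change of at least 2-fold, 493 genes were higher (3.76%) and 612 lower (4.67%), and at 4-fold or more 177 were higher and 35 lower. These folds are counted on the log2(TPM + 1) scale, and on that scale the largest changes were therefore rises. On it 33 genes rose 16-fold or more and no gene fell as far. This does not hold for plain TPM, in which TAS2R60, given below, fell by more than 16-fold. With 0.1 TPM added in place of 1 TPM, 605 genes were at least 2-fold higher and 963 lower. The words rose and fell are used below only of genes that passed this test, and log2 changes are on the log2(TPM + 1) scale, on which low genes show less than their full change. A pair of levels in parentheses gives the mean TPM of the 3 sgPOU2F3 libraries against that of the 3 sgRosa libraries. The groups did not overlap in 51.9% of all genes tested (2652 higher and 4144 lower with sgPOU2F3), so a lack of overlap below is common. The 30 largest rises and falls named below were picked only among such genes, so their lack of overlap is no separate result.

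The median log2 change over all genes tested was −0.13, and a list's median is to be read against that, as its counts are against the 14.9% higher and 22.7% lower of all genes. After median-ratio scaling, which moved the median by 0.13 to 0.01, 3076 genes were higher and 2910 lower, so 51.4% of calls were higher against 39.7% on the deposited scale. No called gene changed sign under that scaling. The number of calls depended on single libraries. Without sgPOU2F3 replicate 3 there were 1283 higher and 1628 lower calls, without sgPOU2F3 replicate 1 there were 1756 lower calls, and without sgRosa replicate 1 there were 1897 lower calls, while without sgPOU2F3 replicate 2 there were 4232. A fit of all 18 libraries called 1073 genes higher and 1264 lower, and list counts fell with it, to 18 of 49 for ribosome biogenesis and 7 of 41 for protocadherins. The sgPOU2F3 replicate 2 and sgRosa replicate 3 libraries stood apart from the other 4 on the second principal component (scores of −30.8 and −18.2 against 6.83 to 19.5, 16.5% of the variance). They also had lower shares of TPM in the 100 most abundant transcripts (25.96% and 26.9%, against 29.8% to 32.3%) and in ribosomal proteins (15.8% and 17.3%, against 18.7% to 22.5%). The part of this in the results was not tested, and a list's count that moved by more than 1.5 times without 1 library (either count 4 or more) is given beside it. The median gene stood at 18.5, 23.5 and 19.8 TPM in the sgPOU2F3 libraries and 22.0, 20.7 and 25.2 TPM in the sgRosa libraries, and log2 levels correlated with a mean r of 0.987 to 0.993 within a guide and 0.928 to 0.946 between guides, across genes. Read depth is unknown, since each column of TPM has the same total.

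**Figure D1:**
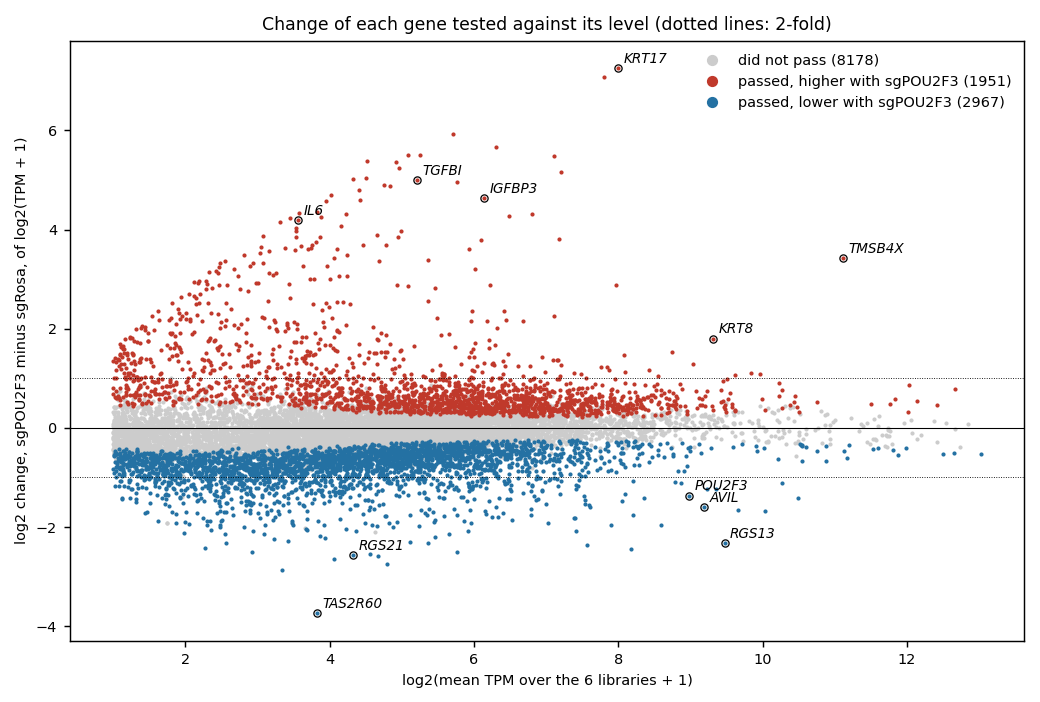
Log2 change of log2(TPM + 1), sgPOU2F3 minus sgRosa, of each of the 13096 genes tested (vertical axis) against its mean level over the 6 libraries (horizontal axis). Coloured points passed limma at an adjusted p of 0.05 (1951 higher, 2967 lower), dotted lines mark a 2-fold change, and the rises reach farther from 0 than the falls.

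The guide's own target lies on GRCh38 chromosome 11, 120236640 to 120319944, plus strand. POU2F3, a protein-coding gene, was at 253, 318 and 274.2 TPM in sgPOU2F3 cells, against 682, 654 and 853 TPM in sgRosa cells. The groups did not overlap, and the gene fell (log2 change −1.37, SE 0.13, limma adjusted p = 0.000181). In the fit of all 18 libraries the same change had an adjusted p of 0.0608. A break made by Cas9 need not lower the transcript, so this level does not measure how much protein was lost, and in bulk RNA fewer cells with the transcript and less transcript per cell cannot be told apart.

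Both POU2F3 coactivator genes fell. C11orf53, which encodes POU2AF2 (chromosome 11, 111245805 to 111286401, plus strand), was at 285, 282 and 281 TPM in sgPOU2F3 cells, against 589, 589.6 and 623 TPM in sgRosa cells (log2 change −1.09, SE 0.07, limma adjusted p = 3.03e-05). Its 3 sgPOU2F3 libraries were nearly equal and all below the sgRosa libraries. COLCA2, which encodes POU2AF3 (chromosome 11, 111298555 to 111308735, plus strand) and neighbours C11orf53, was at 5.42, 7.24 and 7.37 TPM in sgPOU2F3 cells, against 13.3, 12.7 and 13.6 TPM in sgRosa cells (log2 change −0.90, SE 0.15, limma adjusted p = 0.00327). POU2F1, the octamer factor of most tissues, was at 4.79, 7.74 and 5.85 TPM in sgPOU2F3 cells, against 8.01, 7.38 and 9.29 TPM in sgRosa cells, and the groups overlapped (log2 change −0.39, SE 0.19, limma adjusted p = 0.135). POU2AF1, the lymphoid octamer coactivator, stayed near 1 TPM (means of 0.715 and 1.36 TPM, adjusted p = 0.118), and POU2F2 did not reach the level for testing.

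**Figure D2:**
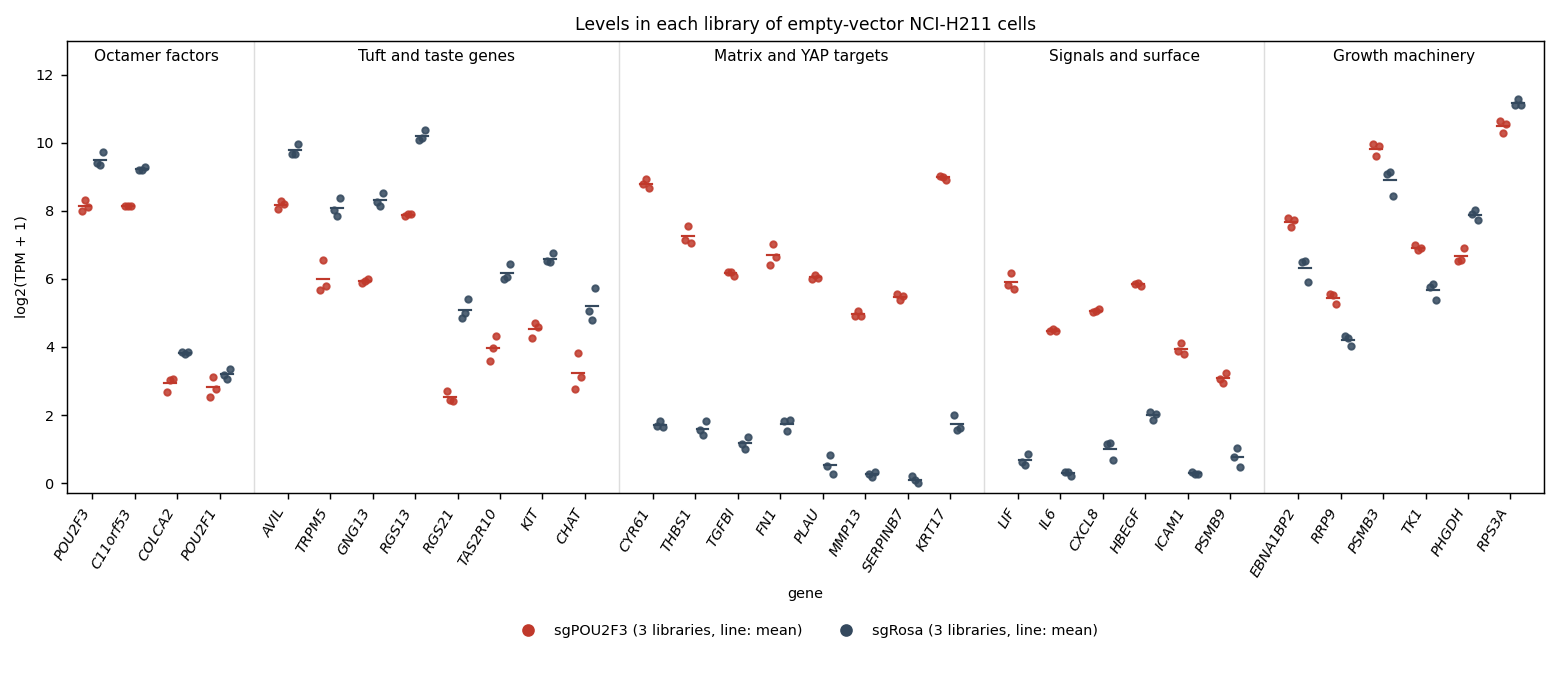
Level of 32 genes in each library, as log2(TPM + 1) on the vertical axis, with sgPOU2F3 libraries in red at the left of each gene and sgRosa libraries in dark blue at its right. Horizontal bars are means of 3 libraries. All genes shown except POU2F1 separate the guides without overlap, as do 51.9% of all genes tested. Some were picked by a rule that required this.

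Bitter taste receptors, the G protein-coupled sensors of bitter compounds, fell almost as a family. Of the 14 tested, 0 rose (0 at an unadjusted p under 0.05) and 12 fell, with a median log2 change of −1.30. TAS2R60 (chromosome 7, 143443453 to 143444409, plus strand) was at 0.941, 0.961 and 0.920 TPM in sgPOU2F3 cells, against 21.5, 21.2 and 33.8 TPM in sgRosa cells, and this was the largest fall among all named genes (log2 change −3.74, SE 0.20, limma adjusted p = 7.13e-06). TAS2R10 was at 11.1, 14.6 and 18.9 TPM in sgPOU2F3 cells, against 62.3, 66.0 and 85.4 TPM in sgRosa cells, TAS2R38 at 71.9, 91.1 and 105 TPM in sgPOU2F3 cells, against 442, 424 and 600.1 TPM in sgRosa cells, and TAS2R42 at 30.3, 42.9 and 43.6 TPM in sgPOU2F3 cells, against 128, 129 and 176 TPM in sgRosa cells. In each of these receptors every sgPOU2F3 library lay below every sgRosa library. For TAS2R60, TAS2R10 and TAS2R38 the naming rule fixed this, since it took the largest falls only from genes without overlap. The summed level of the tested receptors was 139 to 190.8 TPM in sgPOU2F3 libraries and 702 to 980.3 TPM in sgRosa libraries.

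The cascade that carries a taste signal inward fell with the receptors. Of its 14 tested genes, 1 rose and 11 fell, with a median log2 change of −1.59. TRPM5, the cation channel that depolarises the cell at the end of the cascade, was at 50.5, 93.8 and 53.97 TPM in sgPOU2F3 cells, against 261, 229 and 329.7 TPM in sgRosa cells (log2 change −2.07, SE 0.23, limma adjusted p = 0.000439). GNG13, the taste G protein gamma subunit, was at 57.8, 60.1 and 62.8 TPM in sgPOU2F3 cells, against 304, 279.5 and 369.6 TPM in sgRosa cells (log2 change −2.37, SE 0.11, limma adjusted p = 3.77e-06). The alpha subunit gustducin, GNAT3 (72.4 against 262 TPM), and the phospholipase PLCB2 (97.8 against 377 TPM) fell as well, as did the sweet and umami coreceptor TAS1R3 (33.1 against 117 TPM). GNB1, a G protein beta subunit found in most cells, did not pass the test (719.7 against 698 TPM, adjusted p = 0.866). The IP3 receptor ITPR3 (3.29 against 0.990 TPM) was the member that rose, from a low level.

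Regulators of G protein signalling, which speed the shut-off of G proteins, moved in both directions. Of 11 tested, 2 rose and 6 fell. RGS13 was at 229, 238 and 239 TPM in sgPOU2F3 cells, against 1076, 1136 and 1339 TPM in sgRosa cells (log2 change −2.32, SE 0.10, limma adjusted p = 2.17e-06). RGS21, found in taste cells, was at 5.46, 4.42 and 4.34 TPM in sgPOU2F3 cells, against 27.7, 30.7 and 41.9 TPM in sgRosa cells, and RGS2 (389 against 1222 TPM) and RGS6 (2.83 against 10.2 TPM) fell too. RGS10 and RGS19, the pair that rose, each lost the call without 1 library in 4 or 5 of the 6 cases (adjusted p up to 0.0874 and 0.139). Among 27 G protein subunits, 7 rose (3 without sgRosa replicate 1, 4 without sgPOU2F3 replicate 3 or sgRosa replicate 2) and 3 fell (5 without sgPOU2F3 replicate 2). The falls were GNG13, GNAT3 and GNAI1 (26.6 against 50.6 TPM), and GNG12 (27.2 against 12.8 TPM) had the largest rise.

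Of 18 tuft effector and surface genes, 1 rose and 16 fell, with a median log2 change of −1.02. SH2D6, an adaptor gene of tuft cells, was at 4.63, 7.89 and 6.34 TPM in sgPOU2F3 cells, against 46.3, 41.1 and 54.4 TPM in sgRosa cells (log2 change −2.74, SE 0.19, limma adjusted p = 3.23e-05). KIT, the receptor of stem cell factor, was at 18.03, 25.03 and 23.1 TPM in sgPOU2F3 cells, against 91.1, 89.5 and 108 TPM in sgRosa cells. CHAT, which makes acetylcholine, was at 5.82, 13.2 and 7.62 TPM in sgPOU2F3 cells, against 32.6, 26.9 and 52.4 TPM in sgRosa cells. The neuropeptide NMU (502 against 1599.9 TPM), the endoplasmic reticulum protein LRMP (787 against 2087 TPM) and the annexin ANXA13 (0.689 against 5.32 TPM) fell, and STOM (27.02 against 14.3 TPM) rose. Actin-severing proteins of the gelsolin and villin family shape the tuft. Of 7 tested, 2 rose and 3 fell. Advillin was at 262, 312 and 291 TPM in sgPOU2F3 cells, against 815, 822 and 1000.2 TPM in sgRosa cells (log2 change −1.60, SE 0.11, limma adjusted p = 3.24e-05), SCIN (3.59 against 11.1 TPM) fell, and SVIL (18.004 against 8.54 TPM) rose. In eicosanoid synthesis 2 rose and 6 fell of 14, among them the cyclooxygenase PTGS2 (17.3 against 67.5 TPM) and the phospholipases PLA2G4A (31.2 against 76.3 TPM) and PLA2G6 (8.48 against 20.1 TPM), with PTGES2 (127 against 73.7 TPM) higher.

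The transcription factors that accompany POU2F3 in tuft cells also fell. Of 14 tuft factors and coactivators other than POU2F3, 1 rose and 9 fell, with a median log2 change of −0.80. MYB (72.6 against 141 TPM), HOXA5 (3.46 against 9.43 TPM) and HMX2 (1.21 against 3.70 TPM) were lower. SPIB (43.1 against 22.5 TPM), an ETS factor, was higher. FOXI1, an ionocyte factor, did not pass (58.1 against 69.9 TPM, adjusted p = 0.0618). Of the 9 defining tuft markers tested, 7 fell. The eicosanoid enzymes PTGS1 (14.5 against 20.4 TPM) and ALOX5 (9.30 against 8.31 TPM) did not pass. The 10 defining tuft markers summed to 659 to 856 TPM in sgPOU2F3 libraries and 2010 to 2681 TPM in sgRosa libraries, a sum carried mainly by POU2F3 and AVIL. The lowest of them were SH2D7, at 0.0889, 0.473 and 0.325 TPM in sgPOU2F3 cells, against 0.560, 0.635 and 1.05 TPM in sgRosa cells, and HMX2. The 9 defining neuroendocrine markers summed to 41.6 to 51.5 TPM in sgPOU2F3 libraries and 60.3 to 64.7 TPM in sgRosa libraries. Of these, NEUROD1, CHGA, CHGB and GRP were under 1 TPM in all 6 libraries, while CALCA averaged 28.5 TPM in sgPOU2F3 cells and 36.4 TPM in sgRosa cells, DLL3 averaged 13.2 TPM in sgPOU2F3 cells and 18.6 TPM in sgRosa cells, and INSM1 averaged 5.11 TPM in sgPOU2F3 cells and 6.26 TPM in sgRosa cells.

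Below the tuft lists, the 30 largest falls held genes of other kinds. The proapoptotic BH3 gene BIK (15.3 against 91.9 TPM), the endocytic gene AMPH (0.514 against 7.14 TPM), the B-lineage kinase BLK (0.463 against 5.42 TPM), the p53 target TP53INP1 (2.63 against 16.9 TPM) and the activin subunit gene INHBE (7.03 against 32.1 TPM) were among them. Others were the ephrin receptor EPHA7 (17.5 against 81.4 TPM), the potassium channel KCNH7 (2.09 against 12.9 TPM), COL15A1 (1.14 against 8.53 TPM), and the cell cycle inhibitor CDKN1C (3.98 against 19.7 TPM), an imprinted gene. PRR15L (1.43 against 16.9 TPM), KLHDC7A (3.59 against 27.8 TPM), CLPSL2 (6.27 against 42.9 TPM), RGL1 (5.81 against 39.1 TPM), CHAD (1.26 against 11.97 TPM), VWDE (12.6 against 67.9 TPM), FAM167A (0.969 against 8.91 TPM), MYMX (2.25 against 14.4 TPM), FAM49A (4.29 against 22.9 TPM), GPRIN3 (1.90 against 11.4 TPM) and TMEM266 (0.953 against 7.33 TPM) fell too. RGPD1 (10.8 against 56.5 TPM) shares sequence with close copies, so its share of the TPM is uncertain. Among falls of at least 2-fold the most abundant transcripts were LRMP, the cold-shock protein gene YBX3 (778 against 1685 TPM), NMU, RGS2, RGS13, SEC14L1 (388 against 917 TPM), glutamine synthetase GLUL (357 against 839.8 TPM), AVIL, POU2F3 and ANXA1 (295 against 636 TPM).

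Targets of YAP and TAZ, the coactivators held back by the Hippo kinase pathway, made up much of the top of the rises. Of 23 targets tested, 18 rose and 0 fell (0 at an unadjusted p under 0.05), with a median log2 change of 1.92. CYR61, a matricellular target (chromosome 1, 85580761 to 85583962, plus strand), was at 439.9, 487 and 405 TPM in sgPOU2F3 cells, against 2.20, 2.56 and 2.13 TPM in sgRosa cells (log2 change 7.08, SE 0.11, limma adjusted p = 3.17e-08). AMOTL2, which feeds back on YAP, was at 66.2, 91.2 and 63.8 TPM in sgPOU2F3 cells, against 0.819, 0.540 and 0.521 TPM in sgRosa cells. ANKRD1 was at 43.4, 40.4 and 35.5 TPM in sgPOU2F3 cells, against 0.554, 0.231 and 0.636 TPM in sgRosa cells, and NUAK2, a kinase, at 45.4, 61.6 and 47.2 TPM in sgPOU2F3 cells, against 0.631, 0.588 and 1.05 TPM in sgRosa cells. These 4 genes are among the 30 largest rises, which were picked only where the guides did not overlap. Their sgRosa libraries were all near 1 or 2 TPM or below. MYOF (38.003 against 0.190 TPM), CTGF (49.9 against 2.98 TPM) and TGFB2 (57.9 against 0.433 TPM) rose as well. TEAD1, the DNA-binding partner, did not pass (43.1 against 42.2 TPM, adjusted p = 0.98). In the core pathway 8 rose and 2 fell (5 without sgPOU2F3 replicate 2), with a median log2 change of 0.02 among 26. YAP1 itself was at 39.7, 58.8 and 39.9 TPM in sgPOU2F3 cells, against 3.26, 3.01 and 4.25 TPM in sgRosa cells, TAZ was carried by WWTR1 (7.93 against 1.22 TPM), and the upstream scaffolds FRMD6 (28.4 against 4.06 TPM) and WWC1 (45.9 against 16.5 TPM) rose.

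AP-1 factors are dimers of JUN and FOS family members. Of 16 AP-1 and related genes, 7 rose (13 with median-ratio scaling) and 2 fell, with a median log2 change of 0.46. FOSL1 (chromosome 11, 65892049 to 65900573, minus strand) was at 105, 107 and 94.2 TPM in sgPOU2F3 cells, against 1.13, 0.801 and 0.236 TPM in sgRosa cells (log2 change 5.94, SE 0.21, limma adjusted p = 7.75e-07). FOSL2 (116 against 11.2 TPM), JUN (78.6 against 20.1 TPM) and BATF3 (26.3 against 6.03 TPM) rose, and ATF2 (28.7 against 46.6 TPM) fell. Immediate early genes followed: of 20, 13 rose and 1 fell, with a median log2 change of 0.74, with EGR1 (40.6 against 9.77 TPM), IER3 (117 against 25.6 TPM) and JUNB (72.7 against 18.8 TPM) higher and KLF4 (39.7 against 75.3 TPM) lower. Among 21 genes induced by the ERK pathway, a list that shares FOSL1, EGR1 and IER3 with those above, 13 rose and 1 fell, with a median log2 change of 1.05. They included the phosphatase DUSP5 (18.1 against 1.53 TPM) and the ephrin receptor EPHA2 (58.7 against 2.77 TPM), while EPHA4 (24.95 against 69.0 TPM) fell.

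Because genes of a program moved together, short motifs were looked for in the RefSeq promoter windows (GRCh38.p14), from 250 bases before to 50 bases after each gene's start, which were found for 10481 of the 13096 genes tested (80.0%). The octamer ATGCAAAT, searched on both strands, stood in 4.73% of windows of genes 2-fold or more lower (22 of 465), 1.92% of those 2-fold or more higher (7 of 364) and 1.52% of all genes tested, beside 1.8% of all 27305 promoters. At 4-fold or more it stood in 13.04% of lower (3 of 23) and 0.787% of higher windows (1 of 127). The AP-1 motif TGANTCA stood in 10.4% of windows of genes 2-fold or more higher (38 of 364), 4.52% of those lower and 4.35% of all genes tested (7.76% of all promoters). Among genes 4-fold or more higher its share was 7.87% (10 of 127), above the 4.35% of all genes tested and near that of all promoters. The TEAD motif GGAATG stood in 14.01% of the 2-fold higher, 22.0% of the 4-fold higher (28 of 127), 10.5% of the 2-fold lower and 10.7% of all genes tested (14.05% of all promoters). These shares describe the windows without showing that a site is used.

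**Figure D3:**
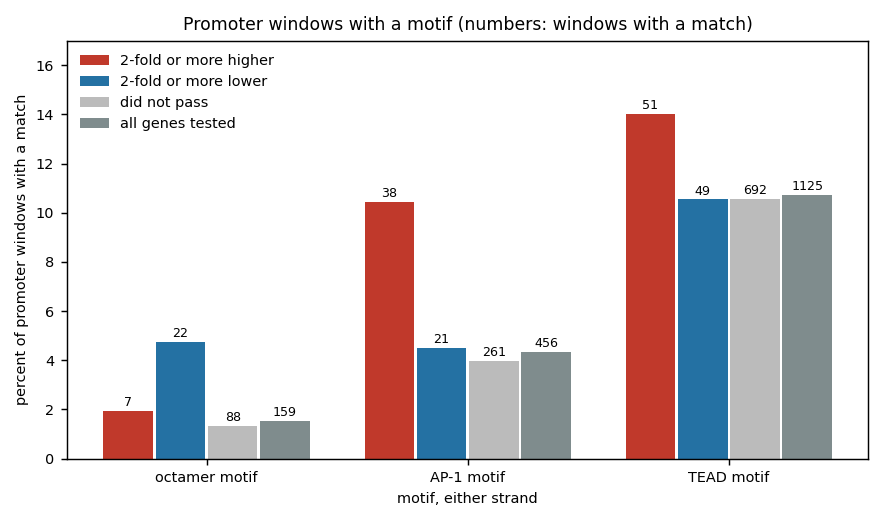
Percent of promoter windows (300 bases) with a match to each motif on either strand, for genes 2-fold or more higher with sgPOU2F3, 2-fold or more lower, not called, and all genes tested. Numbers over the bars count windows with a match, and the octamer share is highest for lower genes (4.73%) while the AP-1 share is highest for higher genes (10.4%).

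Stretches from promoters of genes that fell are shown because they hold the octamer, given in capitals in the form read on the gene's strand. They belong to 3 bitter receptors, the tuft homeobox factor HMX2 and the retinal dehydrogenase ALDH1A1, and all lie before the gene's start.
TAS2R60 (chr7:143443245-143443304, plus strand): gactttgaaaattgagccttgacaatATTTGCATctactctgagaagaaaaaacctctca
TAS2R10 (chr12:10826497-10826556, minus strand): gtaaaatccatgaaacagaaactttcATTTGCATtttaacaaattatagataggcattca
TAS2R5 (chr7:141790142-141790201, plus strand): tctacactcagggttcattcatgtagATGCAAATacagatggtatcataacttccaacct
HMX2 (chr10:123148045-123148104, plus strand): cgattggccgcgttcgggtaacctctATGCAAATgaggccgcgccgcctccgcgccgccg
ALDH1A1 (chr9:72953078-72953137, minus strand): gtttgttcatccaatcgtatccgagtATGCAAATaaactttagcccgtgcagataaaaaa
The distances from the first motif base to the gene's start are 182, 172, 49, 65 and 58 bases in that order. The fifth gene, ALDH1A1, was at 22.7, 22.2 and 26.7 TPM in sgPOU2F3 cells, against 73.0, 78.3 and 98.6 TPM in sgRosa cells, and TAS2R5 at 4.41, 5.24 and 4.45 TPM in sgPOU2F3 cells, against 12.98, 12.04 and 16.8 TPM in sgRosa cells.

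Stretches from promoters of genes that rose are shown for the TEAD motif (THBS1, ANKRD1 and YAP1) and the AP-1 motif (MMP7 and CXCL8), again in capitals.
THBS1 (chr15:39581007-39581064, plus strand): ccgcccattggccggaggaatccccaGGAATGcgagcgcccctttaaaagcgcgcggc
ANKRD1 (chr10:90921184-90921241, minus strand): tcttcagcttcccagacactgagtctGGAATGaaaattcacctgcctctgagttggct
YAP1 (chr11:102110259-102110316, plus strand): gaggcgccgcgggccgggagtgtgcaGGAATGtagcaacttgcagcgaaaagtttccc
MMP7 (chr11:102530782-102530840, minus strand): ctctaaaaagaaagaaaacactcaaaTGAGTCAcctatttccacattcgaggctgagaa
CXCL8 (chr4:73740406-73740464, plus strand): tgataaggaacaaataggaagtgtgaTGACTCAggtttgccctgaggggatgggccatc
The motifs begin 46, 128, 162, 67 and 137 bases before the start. ANKRD1 holds another TEAD motif farther upstream.

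Keratins, the intermediate filaments of epithelia, rose: of 12 tested, 9 rose and 2 fell, with a median log2 change of 1.64. KRT17, a keratin of stressed and basal epithelium (chromosome 17, 41619441 to 41624842, minus strand), was at 524, 512 and 481 TPM in sgPOU2F3 cells, against 3.003, 1.94 and 2.07 TPM in sgRosa cells (log2 change 7.26, SE 0.13, limma adjusted p = 3.67e-08), the largest rise among all named genes. The simple-epithelial pair was abundant in both groups, with KRT8 at 1032, 940.3 and 993 TPM in sgPOU2F3 cells, against 288, 279 and 279.9 TPM in sgRosa cells and KRT18 at 744, 743 and 732 TPM in sgPOU2F3 cells, against 310.3, 293 and 308 TPM in sgRosa cells. KRT80 (33.7 against 2.09 TPM), KRT16 (17.9 against 0.0552 TPM) and KRT81 (8.70 against 0.0810 TPM) rose from levels near 0, and KRT40 (3.95 against 9.40 TPM) fell. KRT16 and KRT17, and KRT81 and KRT86, have near copies, so TPM may be split among them. The basal cell keratins KRT5, KRT14 and KRT15 were under 1 TPM in all 6 libraries and were not tested. They averaged 0.0696, 0.501 and 0.409 TPM in sgPOU2F3 cells and were at 0 in every sgRosa library. The other basal markers, TP63 (0.708 against 1.11 TPM) and NGFR (0.3625 against 0.682 TPM), averaged lower with sgPOU2F3 and were not tested either.

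Contractile and actin-bundling genes rose with 0 falls. Of 39 tested, 24 rose and 0 fell (0 at an unadjusted p under 0.05), with a median log2 change of 0.84. TMSB4X, which binds free actin and was the most abundant transcript to rise at least 2-fold, was at 4702, 3267 and 4228 TPM in sgPOU2F3 cells, against 365, 398 and 364 TPM in sgRosa cells (log2 change 3.42, SE 0.14, limma adjusted p = 1.64e-06). The smooth muscle genes TAGLN (32.1 against 4.86 TPM) and CNN1 (9.52 against 0.456 TPM) rose from low levels. The smooth muscle actins ACTA2 and ACTG2, and LMOD1, did not reach the level for testing. Actin crosslinkers rose from high levels, with FLNA at 469, 1005 and 465 TPM in sgPOU2F3 cells, against 205, 160.0 and 271 TPM in sgRosa cells and ACTN4 (476 against 209 TPM). The myosin light chain MYL6 (1355 against 637 TPM) rose, while ACTG1 (3382 against 2865 TPM, adjusted p = 0.0831) did not pass. TMSB4X has close copies elsewhere in the genome, which could take or lend TPM. Among 16 tubulins 9 rose and 2 fell, with a median log2 change of 0.34, with TUBB3 (98.2 against 29.6 TPM) and TUBB6 (121 against 46.9 TPM) higher and TUBA1A (339.5 against 624 TPM) lower; tubulin copies are alike and their TPM may be shared.

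Cell junction genes changed in both directions. Of 24 claudins and tight junction scaffolds, 6 rose and 4 fell. CLDN6, a claudin of embryonic epithelium, was at 45.3, 41.9 and 41.4 TPM in sgPOU2F3 cells, against 0.374, 0.236 and 0.381 TPM in sgRosa cells, and CLDN1 (21.5 against 0.766 TPM) and CLDN11 (21.5 against 1.34 TPM) rose, while CLDN12 (45.002 against 69.3 TPM) and CLDN10 (32.6 against 46.2 TPM) fell. Of 16 desmosome genes, 0 rose (1 at an unadjusted p under 0.05) and 1 fell (6 without sgPOU2F3 replicate 2), and JUP (73.6 against 135 TPM) was that fall. Cadherins also divided, with 2 rises and 4 falls among 10. CDH11 (5.28 against 0.178 TPM), a mesenchymal cadherin, rose and CDH8 (2.73 against 11.4 TPM), CDH13 (24.3 against 65.0 TPM) and CDH23 (3.95 against 10.2 TPM) fell. Protocadherins, neuronal adhesion proteins encoded in clusters that share exons, held more falls than rises. Of 41, 2 rose and 22 fell (11 without sgPOU2F3 replicate 3 or sgRosa replicate 1, 14 without sgPOU2F3 replicate 1 or sgRosa replicate 3), with a median log2 change of −0.70. PCDHB15 (1.40 against 5.55 TPM), PCDH20 (11.3 against 32.8 TPM) and PCDH10 (3.25 against 10.1 TPM) were among the falls.

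Matrix genes held more rises than falls. Of 32 matricellular and other matrix genes, 14 rose and 1 fell (4 without sgPOU2F3 replicate 2), with a median log2 change of 0.36. Fibronectin, FN1, was at 84.0, 131 and 98.4 TPM in sgPOU2F3 cells, against 2.56, 1.87 and 2.61 TPM in sgRosa cells. THBS1, thrombospondin, was at 141, 189 and 133 TPM in sgPOU2F3 cells, against 1.96, 1.64 and 2.52 TPM in sgRosa cells, and TGFBI, a matrix protein induced by TGF-beta, at 73.3, 73.0 and 66.4 TPM in sgPOU2F3 cells, against 1.23, 0.996 and 1.54 TPM in sgRosa cells. In these 3 genes the groups stood apart by more than an order of magnitude. The osteopontin gene SPP1 (26.02 against 0.316 TPM), the calcification inhibitor MGP (26.9 against 0.471 TPM) and the fibrillar collagen COL1A1 (10.3 against 1.98 TPM) also rose. Collagens as a family split, with 7 rises and 9 falls among 23. COL7A1 (9.02 against 2.23 TPM) and the basement membrane pair COL4A1 (17.9 against 5.76 TPM) and COL4A2 (39.0 against 13.5 TPM) rose, and COL27A1 (159 against 386 TPM) and COL14A1 (1.97 against 6.16 TPM) fell. Among 10 laminin chains 4 rose (2 without sgPOU2F3 replicate 2 or sgRosa replicate 1 or 2, 7 with median-ratio scaling) and 1 fell. The rises included LAMB3 (46.1 against 2.12 TPM), a chain of the epithelial laminin that anchors basal cells.

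Proteases that act on matrix included many rises. Of 11 genes of the urokinase system, which activates plasmin at the cell surface, 10 rose and 0 fell (0 at an unadjusted p under 0.05), with a median log2 change of 1.55. PLAU, urokinase (chromosome 10, 73909177 to 73917497, plus strand), was at 63.5, 67.8 and 64.7 TPM in sgPOU2F3 cells, against 0.418, 0.789 and 0.210 TPM in sgRosa cells (log2 change 5.51, SE 0.17, limma adjusted p = 5.30e-07). The plasminogen receptor pair ANXA2 (439 against 58.8 TPM) and S100A10 (142 against 26.8 TPM) rose together with PLAUR (45.9 against 14.998 TPM), the urokinase receptor. Of 12 matrix metalloproteinases and inhibitors, 6 rose and 3 fell: MMP13, a collagenase, was at 28.98, 32.6 and 29.2 TPM in sgPOU2F3 cells, against 0.204, 0.127 and 0.264 TPM in sgRosa cells, and MMP7 (8.04 against 0 TPM), MMP1 (8.71 against 0.325 TPM) and the inhibitor TIMP1 (32.9 against 3.07 TPM) rose while MMP19 (3.51 against 6.75 TPM) fell. ADAM and ADAMTS proteases divided, with 7 rises and 5 falls among 18, with ADAMTS9 (9.65 against 0.0130 TPM) higher and ADAMTS3 (11.2 against 41.3 TPM) lower. Serpins rose, with 9 rises and 1 fall among 15, and a median log2 change of 1.38: SERPINB7 was at 45.9, 40.8 and 44.4 TPM in sgPOU2F3 cells, against 0.150, 0.0621 and 0 TPM in sgRosa cells, and SERPINB4 (20.8 against 0.400 TPM) and SERPINB3 (7.63 against 0.105 TPM), near copies of each other, rose while SERPINF1 (48.4 against 84.0 TPM) fell.

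Receptors for matrix followed in part. Of 16 integrin subunits, 5 rose (3 without sgRosa replicate 1 or 2) and 1 fell. ITGA3, a laminin receptor subunit, was at 33.6, 55.1 and 31.7 TPM in sgPOU2F3 cells, against 0.630, 0.492 and 0.867 TPM in sgRosa cells. ITGB3 (14.4 against 2.49 TPM) and ITGA5 (25.3 against 12.9 TPM) rose and ITGA4 (1.62 against 5.10 TPM) fell. Tetraspanins held more falls than rises, as did all genes tested, with 4 rises (2 without sgPOU2F3 replicate 3 or sgRosa replicate 1) and 8 falls among 22. Their shares were 18.2% higher and 36.4% lower, against 14.9% and 22.7% of all genes. TSPAN12 (6.39 against 14.6 TPM) was lower and CD9 (229 against 130.5 TPM) higher. Annexins, which bind membranes in calcium, split into ANXA2 and ANXA3 (104 against 19.7 TPM) on the higher side and ANXA13, ANXA9 (3.31 against 12.03 TPM) and ANXA4 (178 against 476 TPM) on the lower (5 rose and 4 fell of 11). Genes of the mesenchymal transition rose. Of 17, 11 rose and 2 fell, with a median log2 change of 1.92. VIM, the mesenchymal filament, was at 111, 122 and 101.05 TPM in sgPOU2F3 cells, against 8.41, 7.11 and 9.11 TPM in sgRosa cells, and the repressor SNAI2 at 42.5, 39.7 and 37.97 TPM in sgPOU2F3 cells, against 2.34, 1.95 and 2.20 TPM in sgRosa cells. The factors TWIST1 (17.5 against 61.9 TPM) and TCF4 (23.9 against 43.8 TPM) fell. The fibroblast markers, which several of these lists contain, summed to 19.7 to 26.1 TPM in sgPOU2F3 libraries and 5.15 to 6.53 TPM in sgRosa libraries. Of the 5 tested, 3 rose and 1 fell, and PDGFRB was under 1 TPM in all 6 libraries. Their part in these results was not tested.

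**Figure D4:**
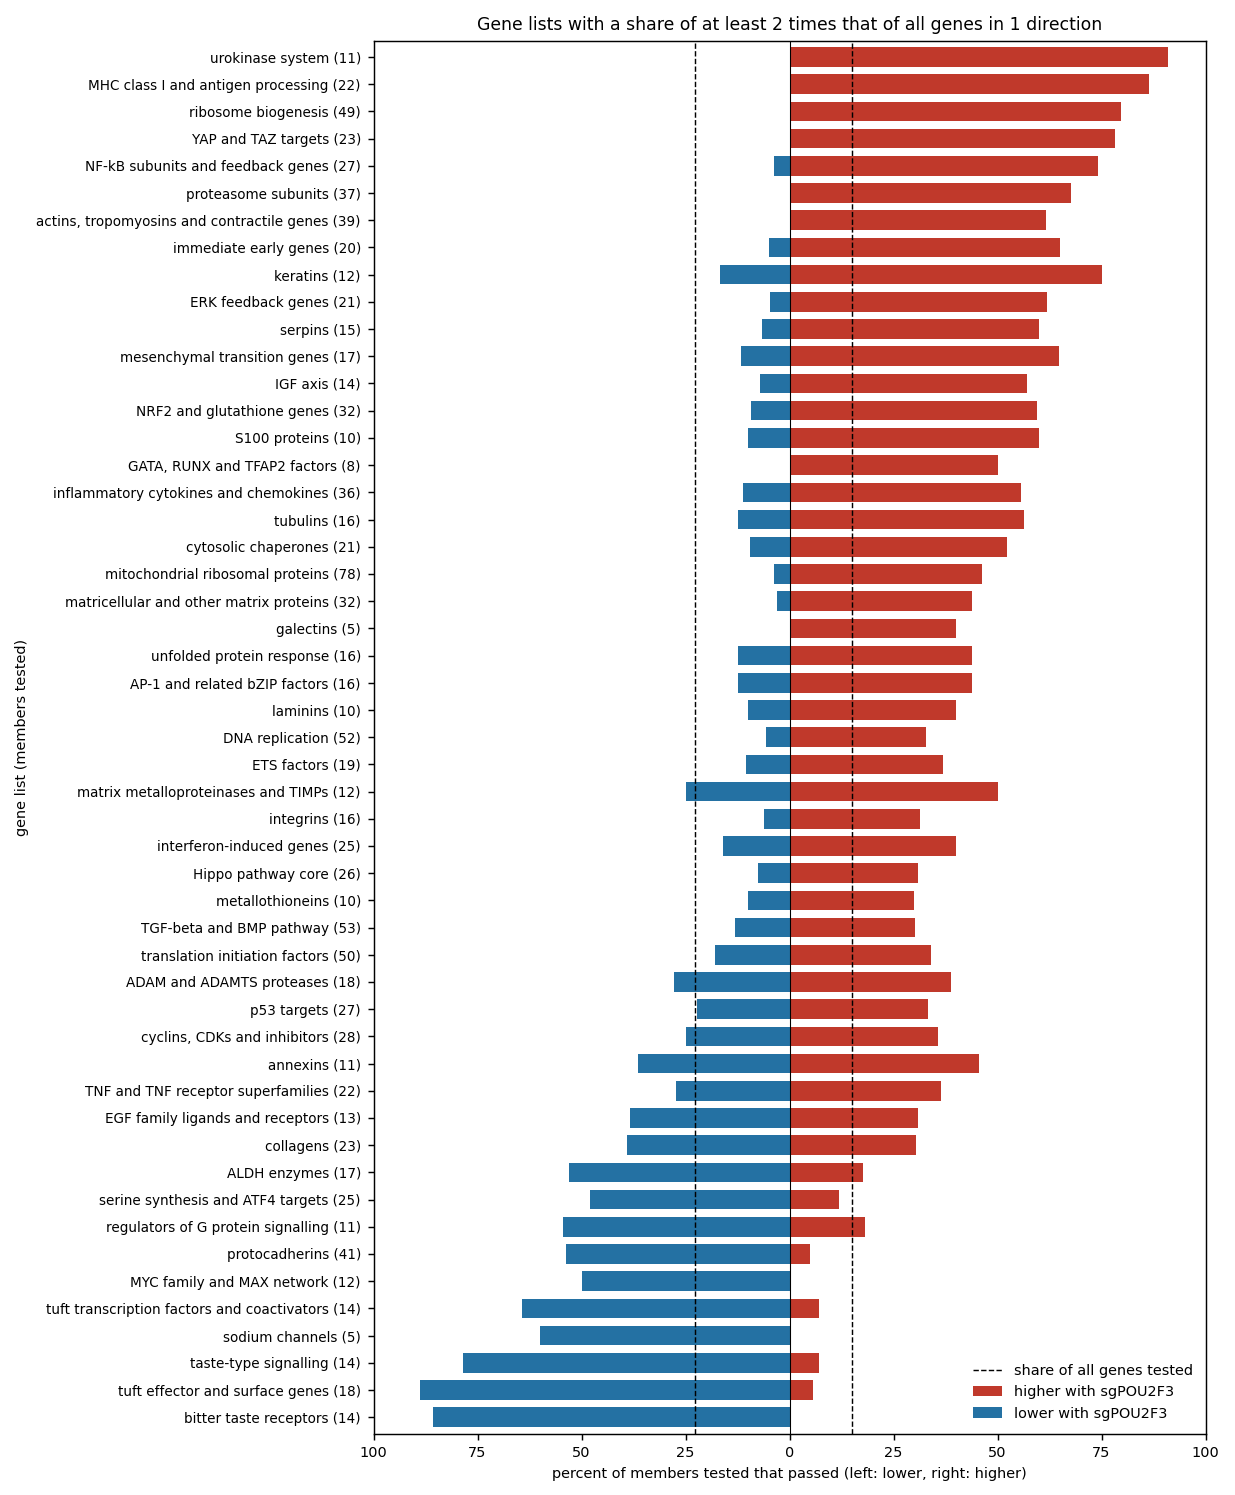
Percent of tested members called higher (red, right) or lower (blue, left) with sgPOU2F3 in the 51 gene lists, of at least 5 tested members, whose share in a direction was 2 or more times that of all genes (dashed lines, 14.9% higher and 22.7% lower). The number of members tested follows each list name, and the lists range from urokinase genes at the top to bitter receptors at the bottom.

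Many inflammatory cytokines and chemokines rose, several from levels near 0. Of 36 tested, 20 rose and 4 fell (1 without sgPOU2F3 replicate 3, 2 without sgRosa replicate 1 or 3), with a median log2 change of 0.89. LIF, of the interleukin 6 family, was at 55.7, 71.9 and 50.9 TPM in sgPOU2F3 cells, against 0.526, 0.442 and 0.822 TPM in sgRosa cells, and IL6 itself at 20.9, 21.96 and 21.2 TPM in sgPOU2F3 cells, against 0.261, 0.255 and 0.165 TPM in sgRosa cells. CXCL8, which draws neutrophils, was at 31.5, 32.6 and 33.8 TPM in sgPOU2F3 cells, against 1.21, 1.26 and 0.599 TPM in sgRosa cells, and IL32 (24.1 against 0.963 TPM) rose. Each of LIF, IL6 and CXCL8 was low in every sgRosa library. XCL1, a lymphocyte chemokine, fell (6.53 against 11.7 TPM). Cytokine receptors divided evenly, with 8 rises (4 without sgPOU2F3 replicate 1 or sgRosa replicate 1 or 2, 5 without sgPOU2F3 replicate 3) and 8 falls among 27. IL1RAP (15.4 against 5.71 TPM) and OSMR (37.96 against 22.1 TPM) rose, while IL6R (7.84 against 19.8 TPM), LIFR (18.1 against 40.9 TPM) and IL13RA1 (99.1 against 192 TPM), a chain of the interleukin 13 receptor, fell. In the TNF and TNF receptor families 8 rose and 6 fell (2 without sgPOU2F3 replicate 3, 3 without sgPOU2F3 replicate 1 or sgRosa replicate 3) of 22. TNFRSF12A, the receptor of TWEAK, was at 210.9, 234 and 189 TPM in sgPOU2F3 cells, against 9.27, 10.7 and 9.20 TPM in sgRosa cells, the decoy TNFRSF6B (26.3 against 0.899 TPM) and LTB (13.1 against 2.004 TPM) rose, and TNFSF13 (3.99 against 7.70 TPM) fell.

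NF-kB subunits and the feedback genes that NF-kB induces rose. Of 27, 20 rose and 1 fell, with a median log2 change of 0.78. ICAM1, an adhesion molecule for leukocytes, was at 13.7, 16.5 and 12.8 TPM in sgPOU2F3 cells, against 0.253, 0.209 and 0.197 TPM in sgRosa cells. BCL3 (76.4 against 9.81 TPM), BIRC3 (25.9 against 4.77 TPM) and MAP3K14 (29.5 against 6.12 TPM) rose, and the deubiquitinase CYLD (11.1 against 18.98 TPM) fell. Antigen presentation on MHC class I rose with 0 falls. Of 22 genes, 19 rose and 0 fell (0 at an unadjusted p under 0.05), with a median log2 change of 0.89. PSMB9, an immunoproteasome subunit, was at 7.34, 6.72 and 8.39 TPM in sgPOU2F3 cells, against 0.698, 1.06 and 0.379 TPM in sgRosa cells, and HLA-C at 114, 112 and 106 TPM in sgPOU2F3 cells, against 38.1, 37.3 and 31.8 TPM in sgRosa cells. The factor IRF1 (42.6 against 12.41 TPM) and the subunit PSMB8 (16.9 against 6.05 TPM) rose too. HLA genes are alike and vary between people, so TPM may be assigned between them unevenly. MHC class II was near absent, with 3 of 14 genes reaching the level for testing and 0 higher and 0 lower.

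Interferon-induced genes did not move as a block. Of 25, 10 rose (6 without sgRosa replicate 1) and 4 fell (1 without sgPOU2F3 replicate 3, 2 without sgPOU2F3 replicate 1 or sgRosa replicate 1). IFITM3 was at 283, 238 and 284 TPM in sgPOU2F3 cells, against 19.3, 17.9 and 17.2 TPM in sgRosa cells, IFITM1 (9.17 against 0 TPM) and IFITM2 (228 against 46.9 TPM), its near copies, rose, as did GBP1 (12.9 against 3.62 TPM), and SAMD9 (12.41 against 25.4 TPM) fell. Checkpoint and natural killer ligands split, with 5 rises and 5 falls (3 without sgPOU2F3 replicate 1 or 3 or sgRosa replicate 1 or 3) among 22. The nectins NECTIN2 (16.2 against 0.975 TPM) and NECTIN3 (25.2 against 10.7 TPM) rose, and ULBP1 (5.45 against 15.9 TPM), PVR (154 against 272 TPM) and CD46 (366 against 622 TPM) fell. Markers of lymphoid and myeloid cells summed to 6.36 to 8.81 TPM in sgPOU2F3 libraries and 8.98 to 10.9 TPM in sgRosa libraries, with CD3E and MS4A1 at 0 in all 6.

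Among growth factor systems the binding proteins of insulin-like growth factors stood out. Of 14 genes of the IGF axis, 8 rose and 1 fell, with a median log2 change of 1.38. IGFBP4 was at 257, 296 and 254 TPM in sgPOU2F3 cells, against 4.51, 4.08 and 6.88 TPM in sgRosa cells and IGFBP3 at 137, 137 and 131 TPM in sgPOU2F3 cells, against 4.86, 4.67 and 3.93 TPM in sgRosa cells. IGFBP5 (12.97 against 0.369 TPM) and IGFBP7 (27.1 against 1.92 TPM) rose too, while the receptor IGF1R (17.3 against 29.9 TPM, adjusted p = 0.0581) did not pass. In the EGF family 4 rose and 5 fell of 13. The ligand HBEGF was at 56.5, 58.5 and 54.7 TPM in sgPOU2F3 cells, against 3.26, 2.602 and 3.10 TPM in sgRosa cells, the feedback inhibitor ERRFI1 (17.1 against 6.40 TPM) rose, and NRG4 (2.596 against 9.03 TPM) and ERBB3 (37.1 against 81.6 TPM) fell. Of 53 genes of the TGF-beta and BMP pathway, 16 rose and 7 fell (3 without sgPOU2F3 replicate 3, 4 without sgPOU2F3 replicate 1 or sgRosa replicate 3, 16 without sgPOU2F3 replicate 2). GREM1, a BMP antagonist, was at 29.8, 29.2 and 27.2 TPM in sgPOU2F3 cells, against 0.298, 0.335 and 0.120 TPM in sgRosa cells, the follistatin-like FSTL1 (169 against 7.99 TPM) and the receptor TGFBR2 (7.47 against 0.452 TPM) rose, and SMAD9 (7.41 against 20.3 TPM) fell. Ephrins and their receptors split, with 4 rises (2 without sgRosa replicate 1) and 7 falls among 16, with EPHA2 and EFNB1 (13.5 against 6.17 TPM) higher and EPHA7, EPHA1 (11.7 against 34.3 TPM) and EPHB3 (27.5 against 67.4 TPM) lower.

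Other receptor tyrosine kinases showed 4 rises (1 without sgRosa replicate 1, 2 without sgPOU2F3 replicate 3 or sgRosa replicate 2, 8 with median-ratio scaling) and 5 falls (8 without sgPOU2F3 replicate 2) among 20, KIT and STYK1 (61.1 against 117 TPM) falling. Of 9 FGF ligands, 0 rose (0 at an unadjusted p under 0.05) and 4 fell, with FGF12 (9.74 against 19.8 TPM) and FGF7 (2.58 against 5.16 TPM) lower. With 14.9% of all genes higher, the lack of rises in so short a list says little about the family. Of 32 Wnt genes, 8 rose (5 without sgRosa replicate 1, 13 with median-ratio scaling) and 3 fell (6 without sgPOU2F3 replicate 2), with DKK3 (35.01 against 11.8 TPM), FZD7 (10.2 against 3.47 TPM) and FZD4 (17.6 against 8.001 TPM) higher and LGR6 (2.63 against 5.70 TPM) lower. In the Notch pathway 4 rose (10 with median-ratio scaling) and 6 fell (2 without sgPOU2F3 replicate 1 or 3 or sgRosa replicate 1, 3 without sgRosa replicate 3, 10 without sgPOU2F3 replicate 2) of 29. HES1, a Notch target that represses neural factors, was at 32.3, 32.9 and 27.3 TPM in sgPOU2F3 cells, against 2.20, 1.32 and 1.39 TPM in sgRosa cells, the ligand JAG1 (25.1 against 6.25 TPM) rose, and HEY1 (3.39 against 8.53 TPM) and RBPJ (60.1 against 97.2 TPM) fell. The vasoconstrictor gene EDN1 was at 58.1, 51.2 and 54.2 TPM in sgPOU2F3 cells, against 0.760, 0.904 and 1.03 TPM in sgRosa cells, and the neuropeptide GAL (1247 against 583 TPM) was among the most abundant rises, as were NME1 (1059 against 509.9 TPM), whose reads adjoin NME2, and the mitochondrial importer TOMM40 (375 against 171 TPM). The rest of the 30 largest rises were the protease gene PRSS23 (287 against 7.0003 TPM), PHLDB2 (34.8 against 0.800 TPM) and ALPK2 (19.8 against 0.0956 TPM).

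Transcription factor families differed in their counts. ETS factors showed 7 rises (4 without sgPOU2F3 replicate 3 or sgRosa replicate 1 or 2) and 2 falls among 19. ETS1 was at 17.6, 25.1 and 19.3 TPM in sgPOU2F3 cells, against 0.346, 0.395 and 0.759 TPM in sgRosa cells, and ETV4 (26.4 against 6.03 TPM) and ETS2 (12.6 against 3.83 TPM) rose. Of 8 GATA, RUNX and TFAP2 factors, 4 rose and 0 fell (0 at an unadjusted p under 0.05), with RUNX2 (15.7 against 3.27 TPM) and TFAP2A (11.2 against 5.13 TPM) higher. HOX genes, which fix position along the body axis, held 0 rises among 25 (0 at an unadjusted p under 0.05), against 14.9% of all genes. Of them 9 fell (15 without sgPOU2F3 replicate 2), a share of 36.0% against 22.7% of all genes, with a median log2 change of −0.43. HOXC5 (23.2 against 49.5 TPM), HOXC4 (4.89 against 10.7 TPM) and HOXD9 (6.86 against 13.7 TPM) were lower beside HOXA5. A list of other homeobox genes, which also held the coactivator EYA1, a gene without a homeobox, split, with 7 rises (11 with median-ratio scaling) and 9 falls (5 without sgPOU2F3 replicate 1 or 3 or sgRosa replicate 1 or 3, 22 without sgPOU2F3 replicate 2) among 49. PITX1 (17.02 against 7.30 TPM) and TGIF1 (64.1 against 34.99 TPM) were higher, and EYA1 (18.1 against 68.2 TPM) and PROX1 (36.8 against 86.5 TPM) were lower. Of 20 FOX factors, 2 rose (4 with median-ratio scaling) and 5 fell (2 without sgPOU2F3 replicate 1 or 3 or sgRosa replicate 1 or 3, 11 without sgPOU2F3 replicate 2), with FOXA1 (8.10 against 19.1 TPM) and FOXO4 (8.28 against 21.5 TPM) among the falls. KLF and SP factors showed 3 rises and 4 falls (1 without sgPOU2F3 replicate 1 or 3 or sgRosa replicate 1 or 3, 11 without sgPOU2F3 replicate 2) among 19, with KLF16 (43.7 against 20.5 TPM) and KLF6 (23.3 against 13.9 TPM) higher. Of 5 SOX factors, 0 rose (0 at an unadjusted p under 0.05) and 2 fell (4 without sgPOU2F3 replicate 2), too few to read against the shares of all genes. SOX9 was at 38.2, 60.6 and 42.3 TPM in sgPOU2F3 cells, against 74.9, 68.7 and 104 TPM in sgRosa cells, and its call was lost without sgPOU2F3 replicate 1 or 3 (adjusted p up to 0.0647). Of 33 nuclear receptors, 7 rose (4 without sgRosa replicate 1 or 2, 13 with median-ratio scaling) and 10 fell (4 without sgPOU2F3 replicate 3, 5 without sgPOU2F3 replicate 1), with NR0B1 (6.22 against 1.56 TPM) and the vitamin D receptor VDR (10.7 against 4.66 TPM) higher and RORB (1.83 against 8.04 TPM), THRA (13.9 against 31.4 TPM) and NR1D2 (16.9 against 34.3 TPM) lower.

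Genes of other lineages differed in level. The neuroendocrine genes of a longer list summed to 978 to 1047 TPM in sgPOU2F3 libraries and 891 to 995 TPM in sgRosa libraries. Of 12 neuroendocrine genes tested, 1 rose and 4 fell (2 without sgPOU2F3 replicate 1 or 3 or sgRosa replicate 1, 7 without sgPOU2F3 replicate 2), with NCAM1 (52.7 against 129 TPM) and SYT1 (13.01 against 23.7 TPM) lower. The median log2 change of the 12 was −0.40. Most of the summed level lay in members other than NCAM1 and SYT1, so the sum does not follow the list as a whole. Among 16 markers of other airway, blood and vessel cells, 3 rose and 6 fell. LUM (7.10 against 0.0301 TPM) and COL1A1 rose, and TPPP3 (3.38 against 8.0004 TPM) and PTPRC (2.50 against 5.88 TPM) fell. Defining secretory, endothelial and basal markers did not reach the level for testing, and SCGB1A1 and SCGB3A1 were at 0 in all 6 libraries. Among 3 mucins tested, MUC1 (13.02 against 1.71 TPM) rose and MUC6 (2.15 against 7.78 TPM) fell.

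Ion channel lists held more falls than rises, as did all genes tested (22.7% fell and 14.9% rose). The share of falls was 28.9% for potassium channels and 30.8% for TRP channels, not far from that of all genes. It was 43.5% for chloride and anoctamin channels, and 3 of the 5 sodium channels fell. Of 38 potassium channel genes, 2 rose (4 with median-ratio scaling) and 11 fell (20 without sgPOU2F3 replicate 2), with a median log2 change of −0.36. KCNIP4 (52.5 against 167 TPM), KCNH8 (2.79 against 9.56 TPM) and KCNB2 (29.9 against 80.96 TPM) fell beside KCNH7, and KCNK5 (13.3 against 6.84 TPM) rose. Chloride and anoctamin channels did too, with 1 rise and 10 falls (3 without sgPOU2F3 replicate 1 or 3 or sgRosa replicate 1, 4 without sgRosa replicate 3) among 23, and a median log2 change of −0.47, with ANO5 (4.30 against 8.05 TPM) and CLIC4 (56.002 against 93.0 TPM) lower and CLIC1 (599.6 against 327 TPM) higher. Of 5 sodium channels, 0 rose (0 at an unadjusted p under 0.05) and 3 fell, among them the epithelial channel SCNN1A (14.4 against 25.8 TPM). In the TRP family 1 rose and 4 fell (2 without sgPOU2F3 replicate 1 or 3) of 13, with the irritant sensor TRPA1 (3.15 against 12.39 TPM) lower beside TRPM5. Calcium pumps, stores and binding proteins showed 5 rises (8 with median-ratio scaling) and 2 falls (5 without sgPOU2F3 replicate 2) among 23, with ORAI1 (16.4 against 8.20 TPM) higher. Semaphorins, plexins and neuropilins, which guide axons, showed 1 rise and 6 falls among 22, a share of falls (27.3%) not far from that of all genes (22.7%). SEMA6D (2.58 against 11.8 TPM), SEMA3C (9.40 against 24.5 TPM) and SEMA3D (5.88 against 15.3 TPM) were lower and SEMA3E (6.98 against 4.04 TPM) higher.

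Other surface and transport genes changed gene by gene. The glutamate transporter SLC1A3 was at 11.52, 13.7 and 10.7 TPM in sgPOU2F3 cells, against 0.117, 0.196 and 0.132 TPM in sgRosa cells, among 22 amino acid transporters of which 3 rose (6 with median-ratio scaling) and 2 fell (6 without sgPOU2F3 replicate 2). Of 11 glucose and lactate carriers, 3 rose and 2 fell (5 without sgPOU2F3 replicate 2), with SLC2A1 (123.4 against 86.7 TPM) and SLC2A8 (24.5 against 15.3 TPM) higher. Of 26 ABC transporters, 5 rose (3 without sgPOU2F3 replicate 1 or 3 or sgRosa replicate 1 or 2) and 7 fell (4 without sgPOU2F3 replicate 1 or sgRosa replicate 3, 11 without sgPOU2F3 replicate 2). ABCC3, a conjugate exporter, was at 11.4, 18.2 and 12.7 TPM in sgPOU2F3 cells, against 0.288, 0.329 and 0.238 TPM in sgRosa cells, and ABCC8 (19.8 against 44.2 TPM) fell. S100 calcium-binding proteins rose, with 6 rises and 1 fall among 10, and a median log2 change of 0.86, with S100A2 (15.6 against 0.963 TPM) and S100A11 (10.9 against 0.420 TPM) higher and S100A14 (10.7 against 17.6 TPM) lower. Among 10 metallothioneins, which are near copies of each other, 3 rose (5 without sgRosa replicate 2) and 1 fell, MT1X (249 against 126 TPM) being the rise that held with each library left out. The galectins LGALS1 (20.8 against 4.94 TPM) and LGALS3 (97.0 against 54.5 TPM) rose among 5 tested, and 0 fell (1 at an unadjusted p under 0.05).

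**Figure D5:**
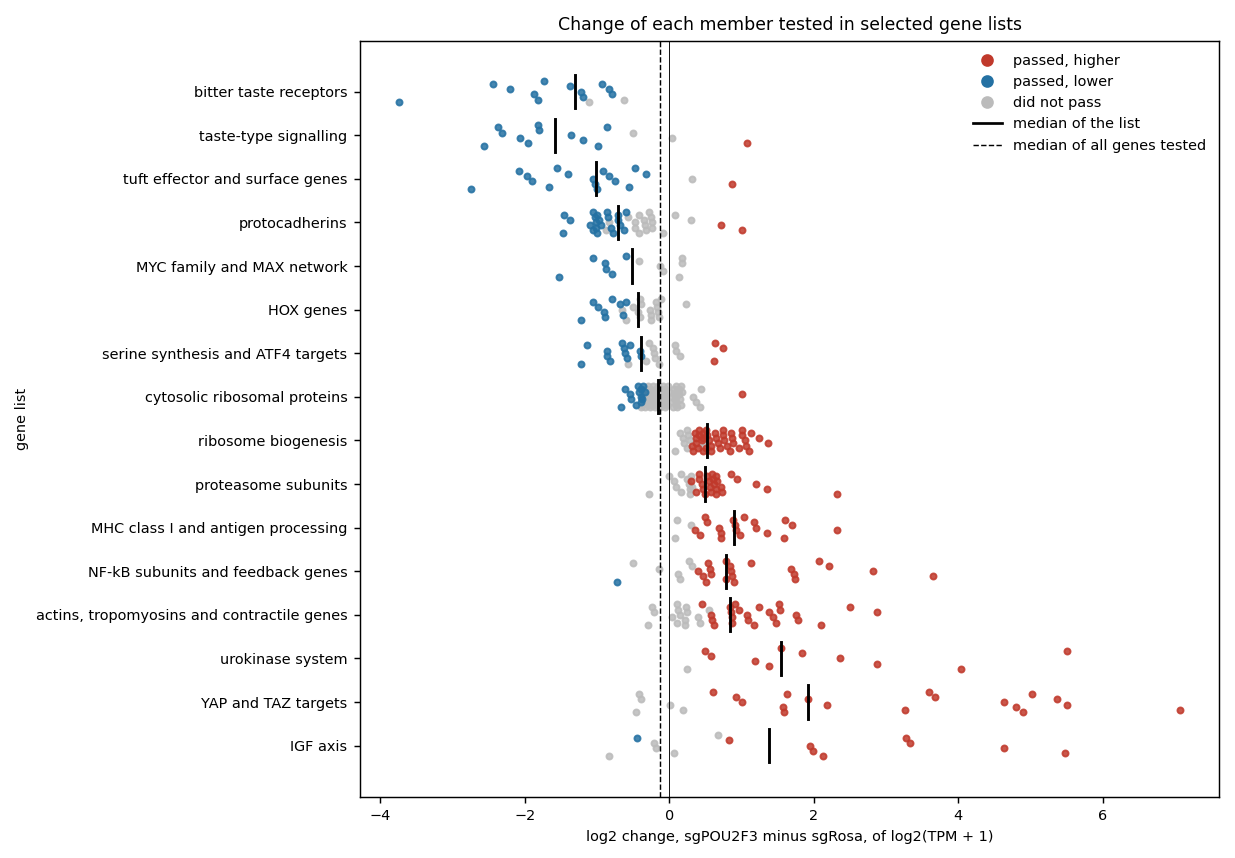
Log2 change of log2(TPM + 1), sgPOU2F3 minus sgRosa, of each tested member of 16 gene lists (points; red passed and higher, blue passed and lower, grey did not pass), with the median of each list as a black bar. The dashed line is the median of all genes tested, −0.13, and the bitter receptors lie to its left (median −1.30) while the YAP and TAZ targets lie to its right (median 1.92).

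Genes that build ribosomes rose, with log2 changes between 0.08 and 1.37 over the list. Of 49 ribosome biogenesis factors, 39 rose and 0 fell (0 at an unadjusted p under 0.05), with a median log2 change of 0.52. EBNA1BP2 was at 219, 185 and 213 TPM in sgPOU2F3 cells, against 90.1, 91.5 and 58.7 TPM in sgRosa cells (log2 change 1.37, SE 0.17, limma adjusted p = 0.000701), and RRP9 at 45.7, 45.02 and 37.7 TPM in sgPOU2F3 cells, against 18.98, 18.3 and 15.3 TPM in sgRosa cells. NOP16 (93.4 against 42.6 TPM) and RRS1 (39.6 against 17.9 TPM) rose as well. The proteins of the finished cytosolic ribosome did not follow. Of 84, 1 rose (4 without sgPOU2F3 replicate 2) and 13 fell (3 without sgRosa replicate 1 or 2, 4 without sgPOU2F3 replicate 3, 7 without sgPOU2F3 replicate 2, 25 without sgRosa replicate 3, 0 with median-ratio scaling), with a median log2 change of −0.15. RPS3A was at 1609, 1258 and 1503 TPM in sgPOU2F3 cells, against 2193, 2515 and 2229 TPM in sgRosa cells and RPL5 (1825 against 2783 TPM) fell, and RPL22L1 (22.4 against 10.7 TPM) rose. Ribosomal protein genes have many processed copies, and their summed share of TPM was 19.9%, 15.8% and 18.7% in sgPOU2F3 libraries and 21.1%, 22.5% and 17.3% in sgRosa libraries. Mitochondrial ribosomal proteins held more rises than falls, with 36 rises (13 without sgPOU2F3 replicate 3, 17 without sgPOU2F3 replicate 1) and 3 falls among 78, and a median log2 change of 0.28, with MRPS12 (157 against 81.7 TPM), MRPL4 (157 against 91.0 TPM) and MRPL41 (52.04 against 30.8 TPM) higher. Of 50 initiation factors, 17 rose (5 without sgPOU2F3 replicate 3, 9 without sgRosa replicate 1 or 2) and 9 fell (4 with median-ratio scaling). EIF5A (752 against 448 TPM) and EIF3I (371 against 246 TPM) rose, and EIF3L (168 against 275 TPM), EIF4B (199 against 325 TPM) and EIF3E (1149 against 1836 TPM) fell.

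Proteasome subunits rose, with 25 rises and 0 falls (1 at an unadjusted p under 0.05) among 37, and a median log2 change of 0.50. Beside PSMB9, PSMB8 and PSMB10 (39.6 against 16.9 TPM), which also stand in the antigen list, the constitutive subunit PSMB3 was at 995, 787 and 962 TPM in sgPOU2F3 cells, against 543, 567 and 348 TPM in sgRosa cells. Cytosolic chaperones held more rises than falls, with 11 rises (6 without sgPOU2F3 replicate 3 or sgRosa replicate 1, 7 without sgPOU2F3 replicate 1) and 2 falls among 21, and a median log2 change of 0.31, among them the chaperonin subunits TCP1 (414 against 285 TPM) and CCT5 (222 against 155 TPM), while HSF2 (37.7 against 53.6 TPM) fell. Of 16 genes of the unfolded protein response, 7 rose (4 without sgPOU2F3 replicate 1 or 3 or sgRosa replicate 1) and 2 fell, with SDF2L1 (85.5 against 46.5 TPM), CRELD2 (44.7 against 29.7 TPM) and PDIA4 (284 against 192 TPM) higher and HERPUD1 (44.2 against 80.9 TPM) lower. Lysosome and autophagy genes split, with 7 rises (3 without sgRosa replicate 1, 4 without sgPOU2F3 replicate 3 or sgRosa replicate 2, 14 with median-ratio scaling) and 9 falls (5 without sgPOU2F3 replicate 1 or 3, 5 with median-ratio scaling) among 37. CD63 (515 against 355 TPM) rose, and the autophagy genes NBR1 (67.6 against 154 TPM), GABARAPL1 (48.5 against 87.5 TPM) and GABARAPL2 (172 against 260.3 TPM) fell.

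In metabolism, serine synthesis and other targets of ATF4 held more falls than rises. Of 25, 3 rose and 12 fell, with a median log2 change of −0.40. PHGDH, the first enzyme of serine synthesis, was at 91.8, 93.3 and 118 TPM in sgPOU2F3 cells, against 239, 259 and 212 TPM in sgRosa cells (log2 change −1.22, SE 0.12, limma adjusted p = 0.000247). PSAT1 (53.1 against 95.7 TPM), the next enzyme, and PCK2 (27.8 against 62.0 TPM) fell, and ATF3 (60.4 against 35.4 TPM) and PPP1R15A (65.4 against 42.03 TPM) rose. Aminoacyl-tRNA synthetases, several of them ATF4 targets, divided into 5 rises and 9 falls (4 with median-ratio scaling) of 20, with VARS (143 against 82.8 TPM) and FARSA (122 against 78.1 TPM) higher and CARS (48.0 against 82.1 TPM), AARS (142 against 234 TPM) and GARS (282 against 423 TPM) lower. NRF2 targets and glutathione genes rose. Of 32, 19 rose and 3 fell, with a median log2 change of 0.50. AKR1B10, a reductase, was at 10.7, 13.5 and 11.1 TPM in sgPOU2F3 cells, against 0.754, 0.872 and 1.03 TPM in sgRosa cells, and OSGIN1 (33.8 against 11.04 TPM) and PGD (329 against 166 TPM) rose while GSTM2 (11.003 against 32.04 TPM) and GSTA4 (25.8 against 57.3 TPM) fell. Aldehyde dehydrogenases held more falls than rises, with 3 rises and 9 falls among 17, and a median log2 change of −0.51, ALDH1A1 and ALDH6A1 (8.45 against 23.3 TPM) among them, with ALDH1A3 (6.46 against 3.29 TPM) higher.

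Energy and lipid pathways changed gene by gene. Of 80 oxidative phosphorylation subunits, 17 rose (6 without sgPOU2F3 replicate 1, 7 without sgPOU2F3 replicate 3 or sgRosa replicate 3, 9 without sgRosa replicate 1, 28 without sgPOU2F3 replicate 2) and 3 fell (8 without sgRosa replicate 3), with a median log2 change of 0.21. NDUFB2 (469.5 against 297 TPM) rose, and NDUFA4L2 (70.4 against 173 TPM), a hypoxia-linked form, fell. Of 20 genes of the citric acid cycle, 1 rose (4 with median-ratio scaling) and 0 fell (0 at an unadjusted p under 0.05), with a median log2 change of 0.02, with PDHA1 (150.5 against 116 TPM) as that rise. Of 21 glycolysis genes, 6 rose (1 without sgPOU2F3 replicate 3) and 2 fell (6 without sgPOU2F3 replicate 2), with a median log2 change of 0.20, with PKM (922 against 571 TPM) higher and PDK1 (51.6 against 93.2 TPM) lower. Cholesterol synthesis split evenly, with 4 rises and 4 falls (7 without sgPOU2F3 replicate 2) among 22, with DHCR7 (195 against 124.3 TPM) higher and TM7SF2 (26.3 against 48.0 TPM) and INSIG1 (23.8 against 35.1 TPM) lower. Of 28 lipid synthesis genes, 4 rose (7 with median-ratio scaling) and 3 fell (9 without sgPOU2F3 replicate 2), with GPAT3 (19.4 against 6.29 TPM) and FABP5 (489 against 301 TPM) higher and ACSL4 (319 against 585 TPM) lower.

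Of the cell cycle lists, DNA replication genes held more rises than falls, with 17 rises (10 without sgPOU2F3 replicate 3, 26 with median-ratio scaling) and 3 falls among 52, and a median log2 change of 0.22, with thymidine kinase TK1 (120.0 against 50.3 TPM) and the helicase subunit MCM5 (57.6 against 35.1 TPM) higher. Mitosis and spindle genes fell at the share of all genes (22.6% against 22.7%), with 2 rises (4 without sgPOU2F3 replicate 2, 7 with median-ratio scaling) and 12 falls among 53, and a median log2 change of −0.17, with NEK2 (79.9 against 129.8 TPM), HMMR (26.6 against 42.1 TPM) and CDC25C (22.97 against 35.2 TPM) lower. Whether these lists differ from each other was not tested. Cyclins, cyclin-dependent kinases and inhibitors split, with 10 rises and 7 falls (4 without sgPOU2F3 replicate 3) among 28. Cyclin D1, CCND1, was at 463, 603 and 449.7 TPM in sgPOU2F3 cells, against 239, 207 and 283 TPM in sgRosa cells, the inhibitors CDKN2B (10.1 against 1.59 TPM) and CDKN1A (11.6 against 4.39 TPM) rose, and CDKN1C, CDKN1B (54.03 against 99.6 TPM) and the pocket protein RBL2 (43.2 against 117 TPM) fell. In the MYC and MAX network 0 rose (0 at an unadjusted p under 0.05) and 6 fell, with a median log2 change of −0.51 among 12. The MAX-binding repressors MXD4 (12.98 against 38.6 TPM), MXD3 (11.96 against 25.96 TPM) and MXD1 (7.96 against 15.4 TPM) and the paralog MYCN (2.91 against 6.08 TPM) fell, while MYC (228 against 249 TPM, adjusted p = 0.26) and MAX did not pass.

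Of 27 p53 targets, 9 rose and 6 fell (3 without sgPOU2F3 replicate 3). PLK2 was at 128, 126 and 128 TPM in sgPOU2F3 cells, against 8.85, 8.27 and 7.87 TPM in sgRosa cells, GADD45A (94.3 against 30.6 TPM) and AEN (27.1 against 9.58 TPM) rose, and TP53INP1 and RRM2B (29.6 against 44.2 TPM) fell, with MDM2 (49.8 against 56.2 TPM, adjusted p = 0.37) not passing. The BCL2 family split, with 5 rises and 6 falls among 20. BCL2, which restrains apoptosis, was at 56.4, 98.5 and 66.3 TPM in sgPOU2F3 cells, against 229, 222 and 328 TPM in sgRosa cells, the BH3 genes BIK and BMF (16.8 against 31.1 TPM) fell, and BID (56.4 against 35.6 TPM), BAK1 (50.7 against 32.9 TPM) and PMAIP1 (70.3 against 48.7 TPM) rose. Caspases and death receptors showed 5 rises (11 with median-ratio scaling) and 5 falls (1 without sgPOU2F3 replicate 1 or 3 or sgRosa replicate 3, 2 without sgRosa replicate 1, 3 without sgRosa replicate 2) among 25, with CASP4 (91.7 against 31.2 TPM) and TNFRSF1A (78.8 against 31.8 TPM) higher and CASP6 (25.1 against 46.6 TPM) lower. DNA repair genes showed 5 rises (2 without sgPOU2F3 replicate 1 or 3 or sgRosa replicate 1 or 3, 3 without sgRosa replicate 2, 8 with median-ratio scaling) and 7 falls (3 without sgPOU2F3 replicate 1 or 3 or sgRosa replicate 3, 4 without sgRosa replicate 1, 12 without sgPOU2F3 replicate 2) among 46, with RAD54L (49.3 against 36.9 TPM) higher and RAD50 (21.03 against 32.3 TPM) and MRE11 (47.7 against 72.2 TPM) lower. Chromatin remodelling and Polycomb genes had a share of falls (28.9%) not far from that of all genes (22.7%), with 2 rises (6 with median-ratio scaling) and 13 falls (5 without sgPOU2F3 replicate 1, 6 without sgPOU2F3 replicate 3, 7 without sgRosa replicate 1 or 3, 23 without sgPOU2F3 replicate 2) among 45, and a median log2 change of −0.22. SMARCA2 (47.6 against 132 TPM), NCOA3 (39.7 against 88.6 TPM) and EZH1 (23.1 against 48.8 TPM) were lower. Histone genes were much the same (28.3% fell), with 1 rise and 15 falls (7 without sgPOU2F3 replicate 3, 8 without sgPOU2F3 replicate 1, 9 without sgRosa replicate 1) among 53, and a median log2 change of −0.25, with HIST1H3E (2.09 against 8.44 TPM) and HIST2H2BE (2.17 against 6.53 TPM) lower. Most replication histone transcripts lack a poly(A) tail, so poly(A)-selected RNA holds them only in part, and their copies are alike.

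Some genes were near 0 with 1 of the guides. In sgRosa cells 223 of the genes that rose had a mean under 1 TPM, 88 of them at 5 TPM or more in sgPOU2F3 cells, and 11 were listed at 0 in all 3 sgRosa libraries. FOSL1, AMOTL2, PLAU, LIF, TGFB2, EDN1, NUAK2, SERPINB7, CLDN6 and ITGA3 had the highest sgPOU2F3 levels among them. In the other direction 174 of the genes that fell had a mean under 1 TPM in sgPOU2F3 cells, 8 of them at 5 TPM or more in sgRosa cells, and 0 were listed at 0 in all 3 sgPOU2F3 libraries. Among those 174 the highest in sgRosa cells were TAS2R60, FAM167A, TMEM266, AMPH, CTSF (0.716 against 5.56 TPM) and BLK.

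The surroundings of the cut gene were read because Cas9 breaks the chromosome there. Of the genes within 1 Mb of POU2F3 on chromosome 11, 11 besides POU2F3 were tested. MCAM (38.4 against 10.7 TPM) rose, and TMEM136 (11.8 against 19.7 TPM), whose start lies 5.2 kb past the end of POU2F3, fell. USP2 (3.07 against 1.45 TPM), NECTIN1 (24.9 against 11.2 TPM) and OAF (21.2 against 13.9 TPM) rose, calls that were each lost in 3 or 4 of the 6 fits without 1 library (adjusted p up to 0.136, 0.105 and 0.0692 in that order). ARHGEF12 (66.1 against 99.6 TPM, adjusted p = 0.0647), TBCEL (9.27 against 12.8 TPM, adjusted p = 0.102) and SC5D (21.9 against 27.7 TPM, adjusted p = 0.0575) did not pass. Of the 58 genes tested on chromosome 11 distal to POU2F3, 11 rose and 11 fell (median log2 change −0.04). Of the 450 on the long arm before it, 103 rose (22.9%, against 14.9% of all genes) and 78 fell (17.3%, median 0.02). On the whole of chromosome 11, 20.9% of 742 genes rose, the highest share of any chromosome, and 18.7% fell. Whether these shares are tied to the cut was not tested.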

How the data were processed

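Per the labels' protocols, poly(A) RNA was taken with TRIzol and sequenced from TruSeq libraries. The submitters' processing notes name kallisto and hg38 for the deposited TPM values, made by the authors. The sources used here do not give its version, its transcripts or any use of strand, so antisense or overlapping genes may share TPM. Columns were matched to samples by name. Of 19875 entries, 134 named no gene (27 spreadsheet dates, 107 fragments of descriptions) and were left out with 1.66% to 2.44% of a library's TPM, so genes merged under them are not analysed here.

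Genes that averaged 1 TPM or more across these 6 libraries were tested as log2(TPM + 1) in limma 3.58.1 (R 4.3.3) with an intensity trend, two-sided, with Benjamini-Hochberg adjustment over 13096 genes. The members and the 98 gene lists were chosen with earlier results of these data known. Lists are described by counts and medians, without a test. A fixed rule chose the genes to name: the octamer family, the 30 largest rises and falls and the 10 most abundant changes of at least 2-fold (5 TPM or more in the higher group), up to 4 members per list and direction with the largest change, genes near POU2F3, and genes under 1 TPM in 1 group. The 30 largest rises and falls were taken only from genes whose groups did not overlap. From the lists, genes whose call was lost without any 1 library are left unnamed or marked so. PLCB2, TAS1R3, ITPR3, HMX2, TAS2R5, CTGF, PLAUR, GNB1, FOXI1, TEAD1, ACTG1, IGF1R, MYC, MAX and MDM2 were named after their values were seen. Some items that the rule chose are not reported here. Positions are from GENCODE (GRCh38) and promoter sequences from RefSeq (GRCh38.p14).

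The fit was tested on simulated data of 13096 genes. Of 200 changed genes it called 7% at 1.5-fold, 59.5% at 2-fold and 91.5% at 4-fold, with 0, 4 and 9 false calls. Each simulated gene varied independently of the others, whereas in the real libraries many genes deviated together and far more genes were called. The simulated shares and false calls therefore need not hold for the real data. Alternatives were the pseudocount, the filter on low values, 2 scalings, the variance model, a replicate block, fits with the other libraries and each library left out.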

Additional observations from a re-analysis of the deposited data

How the results depend on the processing

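All counts here are of genes called by limma at an adjusted p of 0.05. Beside the 1951 higher and 2967 lower calls, median-ratio scaling gave 3076 higher, a fit of all 18 libraries 1073 higher and 1264 lower, and a fit with the replicate block 1225 higher and 1717 lower. With 1 library left out the higher calls ranged between 1283 and 1903 and the lower between 1628 and 4232. At 2-fold or more, the 493 higher and 612 lower calls became 276 and 245 with a pseudocount of 5 TPM. A pseudocount of 0.1 TPM gave 963 lower, and a mean of at least 5 TPM gave 321 higher. With 1 library left out they ranged between 459 and 539 higher and between 439 and 888 lower. The log2 change of POU2F3 was −1.37 in the fit of all 18 libraries with an adjusted p of 0.0608, and ranged between −1.46 and −1.25 with 1 library left out. The causes were not tested. None of the genes that the naming rule chose turned direction. Of the 558 of them that were called, 336 stayed called in the same direction under every alternative run and 431 with each library left out. The median change over all genes ranged between −0.20 and −0.06 with 1 library left out. Libraries with the same replicate number in both guides did not deviate together (r of deviations across genes 0.17, −0.57 and −0.22), and 1 of the 6 libraries, sgRosa replicate 1, correlated best with its own number, so the numbers were not taken to pair the libraries. Depth is unknown, and precision rests on 3 libraries a guide.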

Other observations

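By chromosome, the X held fewer rises and more falls than the genes tested as a whole: of 449 genes, 13.1% rose and 31.2% fell (median log2 change −0.25). On chromosome 16, 18.4% of 599 genes rose and 15.5% fell (median 0.00), and on chromosome 13, 6.83% of 205 rose and 22.4% fell. The highest share of rises, 20.9% of 742 genes, was on chromosome 11, which holds POU2F3. Embryonic kidney markers, listed because such cells package lentivirus, summed to 47.4 to 61.7 TPM in sgPOU2F3 libraries and 61.4 to 82.3 TPM in sgRosa libraries, and PAX2 was at 0 in all 6. Ciliated cell markers, low in both groups, summed to 8.22 to 8.76 TPM in sgPOU2F3 libraries and 16.3 to 23.8 TPM in sgRosa libraries, and all 3 tested fell.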
